A study of Mus musculus with 8 samples.

Results

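Ribosome biogenesis factors are the proteins that make, modify and fold ribosomal RNA and assemble it with ribosomal proteins in the nucleolus. The 44 genes described here were chosen by name as nucleolar factors of rRNA processing and subunits of RNA polymerase I, without use of the measured values, although results of these data were known when the list was drawn up. Every probe set whose platform annotation named one of them and no other gene was taken, which gave 91 of the array's 45037 probe sets other than controls, and 44 of its 18193 named genes. RNA of the genital tubercle region, the outgrowth from which penis and clitoris develop, was compared between 4 male and 4 female FVB/N mouse embryos at 14 days post coitum (Theiler stage 22). All embryos were of this strain, none carried a transgene or received a treatment per the labels, and each sample was dissected and hybridized unpooled on 1 Affymetrix MOE430 array. The labels do not tell whether samples came from 1 litter or were amplified together, so the p-values reflect only how these samples vary, and some of that variation may be technical.

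RNA polymerase I transcribes the ribosomal RNA precursor. Small nucleolar ribonucleoproteins (snoRNPs) then guide its methylation (box C/D) and pseudouridylation (box H/ACA), and separate sets of processing factors and helicases mature the small and the large subunit. In embryonic tissue these genes are known to be expressed in all dividing cells, and many are known targets of the transcription factor Myc, which binds the E-box letters CACGTG.

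Intensities are linear values scaled by the authors to the same trimmed mean on each array (1500.01), and each difference is the male mean minus the female mean of log2(intensity + 16), ± its standard error (SE) as limma estimated it. That scale understates the change of dim probe sets. A probe set was called at a limma adjusted p under 0.05 over all 22519 probe sets tested, and a gene's value is that of its brightest tested probe set, by the mean of all 8 arrays. Intensities of different probe sets cannot be ranked against each other.

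The sex of the labels was checked first. Eif2s3y, a Y-linked translation factor gene, had intensities of 4109, 6136, 5571 and 6104 on the male arrays, in the order of replicates 1 to 4, against 31.1 to 70.8 on the female arrays. Xist, the noncoding RNA of the inactive X chromosome, had 344, 230.0, 16036 and 619.6 on the male arrays, against 32465 to 35816 on the female arrays. Male replicate 3 thus carried Xist signal unlike the other males while its Eif2s3y was at the male level, and the counts of calls are also given without it. The tubercle transcription factor genes Hoxd13 (28404 to 31490 in males, 34261 to 38044 in females) and Isl1 (25445 to 28401 in males, 30087 to 36674 in females) were bright on all arrays. The 18S ribosomal RNA control probe set moved with sex, with 21050 to 33634 on male arrays and 8332 to 18926 on female arrays. Median intensity was 211.7 to 249.4 on male arrays and 184.4 to 206.6 on female arrays. The 3′ signal of the Gapdh control over its 5′ signal was 12.6 to 16.3 in males and 14.4 to 21.2 in females. For the actin control this ratio was 5.30 to 9.04 in males and 6.47 to 8.54 in females. How this 3′ excess bears on probe sets of 1 gene that differ was not tested.

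Lists of other cells and of dividing cells were read as well. Their counts stand beside 28.2% of the 11489 tested genes called lower in males and 14% called higher. Most lists are too small to set against these shares. Summed intensities of the sexes overlapped for the epithelial and the gonadal steroid genes. Each summed intensity is over the brightest probe set of every listed gene on the array, tested or not. Of 11 tested skeletal muscle genes 7 were called higher in males, with a summed intensity of 20598 to 31641 in males and 7437 to 17819 in females. Of 6 tested neuronal genes 4 were called higher in males and 1 lower (summed intensity 11848 to 16051 in males, 9297 to 10833 in females). Of 3 tested cartilage genes 2 were higher in males (4197 to 7346 in males, 1974 to 2230.3 in females). Of 6 tested endothelial genes 3 were higher and 1 lower (9868 to 12146 in males, 7801 to 9281 in females), and of 6 tested macrophage genes 2 were higher and 1 lower (6320.4 to 7591 in males, 4325 to 5190.5 in females). Of 3 tested erythroid genes 1 was higher and 1 lower (43681 to 53715 in males, 38884 to 41983 in females). Of 8 tested epithelial genes 5 were lower in males and 1 higher (48376 to 52712 in males, 48384 to 55782 in females). Of 11 tested tubercle genes 7 were lower and 1 higher (125997 to 137498 in males, 143691 to 156400 in females). Of 23 tested cell cycle genes 11 were lower and 1 higher (282903 to 289233 in males, 318494 to 356637 in females). Of 4 genes of gonadal steroid cells on the array 1 was tested and it was not called (604 to 777 in males, 333 to 639 in females). No tested marker was listed at 0. In whole tissue, fewer cells of a type and less RNA per cell cannot be told apart, and the part of these lists in the results below was not tested.

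More of these factors were lower than higher in male tubercles. Of the 44 genes, 43 had a tested probe set. In males 19 were called lower (44.2%), 4 were called higher (9.3%) and 20 did not pass. Over the 11489 tested genes, 28.2% were called lower in males and 14% higher, 42.2% in all, beside 53.5% of the 43. The median difference was -0.27 over the 43 genes, beside -0.12 over all tested genes. The most negative was Ppan, a large subunit assembly factor (-1.68), and the most positive Nop58, a core protein of box C/D snoRNPs (0.98). Ranges of males and females did not overlap for 19 genes with males below, where 27.3% of all tested genes had this, and for 5 with males above, where 12.3% of all tested genes had it. Counted over probe sets instead, 25 of 74 were called lower (33.8%) and 8 higher (10.8%), beside 21.9% and 18.7% of all tested probe sets. With the dimmest tested probe set of each gene, 10 were called lower (23.3%, beside 22.2% of all tested genes). On it 6 were called higher (14%, beside 15.6%), so both shares were near those of all tested genes. Among brighter probe sets alone, with an upper-quartile filter, 37 of the genes were tested. Of these 16 were called lower (43.2%, beside 33.2% of all genes tested there) and 5 higher (13.5%, beside 18.8%).

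Without male replicate 3, 18 genes were called lower (41.9%, beside 24.1% of all tested genes) and 3 higher (6.98%, beside 11.7%), and 21 of the 23 called genes kept their call. Over probe sets, 24 of 74 were then called lower (32.4%) and 6 higher (8.11%), beside 18.5% and 15% of all tested probe sets. The counts of non-overlapping genes were again 19 with males below and 5 with males above, beside 28.7% and 13.7% of all tested genes. By role, the small subunit genes then had 3 called lower and 1 higher, and the other roles had the same numbers of calls as with all arrays. The numbers of calls in the marker lists and in the cell cycle list above were also the same without this array. With the 18S control as a covariate 1 of the 23 kept its call, Nolc1 (limma adjusted p = 0.0489), while all 23 kept their sign and the median difference was -0.27. The difference moved by over 1.5 times in 4 of the 23, to 0.25 for Nop58, -0.14 for Nop10, -0.49 for Imp3 and -0.95 for Polr1a. In that fit 414 probe sets of the whole array were called, against 9128 without the covariate. The 18S values of the sexes did not overlap, so the 18S level and sex cannot be told apart in it.

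**Figure D1:**
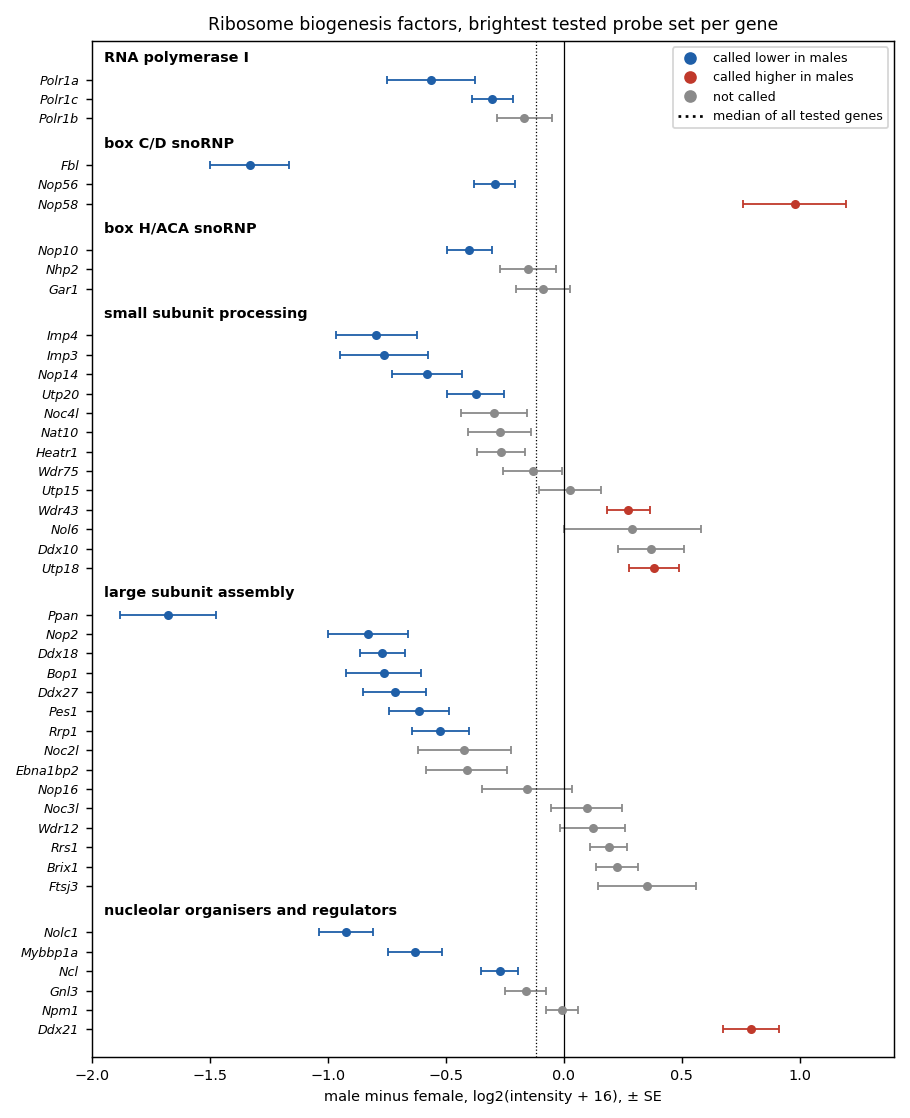
Male minus female difference in log2(intensity + 16) (horizontal axis) for the brightest tested probe set of 43 ribosome biogenesis genes, grouped by role. Points are limma estimates with SE bars, coloured by call, and the dotted line is the median of all tested genes (-0.12). In 31 genes the point lies below 0, from -1.68 for Ppan upward.

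The mean log2 value of the 43 genes was 11.75, 11.58, 11.59 and 11.60 on male arrays 1 to 4, against 11.96, 11.88, 11.89 and 11.87 on female arrays 1 to 4. All 4 male arrays lay below all 4 female arrays. The mean of all tested genes was 10.98 to 11.04 on male arrays and 11.10 to 11.12 on female arrays, so that the genes stood 0.57 to 0.71 above it in males and 0.74 to 0.84 in females. Male replicate 1 was the highest of the males on both measures. Within a sex the factors varied little for most genes. The coefficient of variation had a median of 13.0% in males, from 4.13% for Ddx18 to 35.3% for Nop58, and a median of 9.50% in females, from 1.20% for Nop56 to 47.97% for Nol6.

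**Figure D2:**
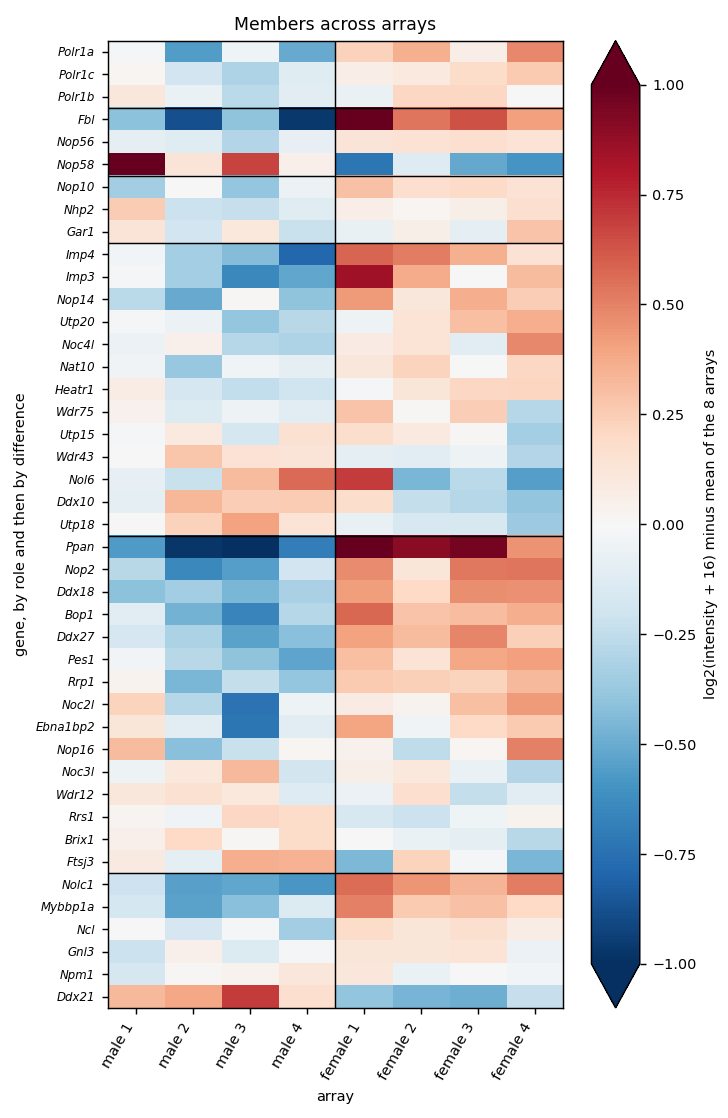
Log2(intensity + 16) minus the mean of the 8 arrays for 43 genes (rows, by role and then by difference) on 4 male and 4 female arrays (columns), with colours clipped at -1 and 1. Ppan and Fbl are low on all male arrays, and Nop58 and Ddx21 are high on them.

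Promoter sequences are given for 4 genes, Ppan because its difference was the largest and Imp4, Nop2 and Utp18 because they are called genes whose promoter holds an E-box before the start site. Each is the 250 bases before the transcription start in RefSeq (build GRCm38.p6), 5′ to 3′ on the gene's strand. Capitals mark CACGTG in Imp4, Nop2 and Utp18, and in Ppan the overlapping TATAAA letters of both strands.
Ppan, chr9:20887925-20888174, plus strand: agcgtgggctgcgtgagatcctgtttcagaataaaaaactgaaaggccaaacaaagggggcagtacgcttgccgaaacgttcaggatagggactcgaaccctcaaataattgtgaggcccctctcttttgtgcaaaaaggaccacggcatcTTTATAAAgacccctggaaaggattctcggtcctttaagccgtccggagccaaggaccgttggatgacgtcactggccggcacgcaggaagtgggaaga
Imp4, chr1:34439579-34439828, plus strand: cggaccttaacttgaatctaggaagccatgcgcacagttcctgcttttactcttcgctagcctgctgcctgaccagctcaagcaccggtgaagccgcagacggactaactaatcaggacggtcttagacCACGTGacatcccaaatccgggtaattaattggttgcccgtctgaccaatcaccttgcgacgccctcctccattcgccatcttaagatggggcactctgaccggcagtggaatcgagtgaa
Nop2, chr6:125131633-125131882, plus strand: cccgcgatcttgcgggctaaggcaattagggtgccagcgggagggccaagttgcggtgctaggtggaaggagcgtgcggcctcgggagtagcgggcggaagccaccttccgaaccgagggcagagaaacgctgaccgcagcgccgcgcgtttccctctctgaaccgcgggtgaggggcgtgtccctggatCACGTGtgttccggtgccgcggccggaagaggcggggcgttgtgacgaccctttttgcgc
Utp18, chr11:93885767-93886016, minus strand: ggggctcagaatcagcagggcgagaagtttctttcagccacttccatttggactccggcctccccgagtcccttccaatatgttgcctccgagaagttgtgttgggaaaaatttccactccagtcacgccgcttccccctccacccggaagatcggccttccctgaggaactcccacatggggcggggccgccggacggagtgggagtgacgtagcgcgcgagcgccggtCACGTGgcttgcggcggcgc

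The E-box began 121 bases before the start in Imp4, 60 in Nop2 and 20 in Utp18, and the TATAAA letters began 99 and 97 bases before the start in Ppan. Of the 44 genes 39 had a promoter entry. Over a window of 300 bases, 250 before and 50 after the start, CACGTG stood in 7 of the 39 (17.9%), beside 8.09% of 27025 genes with a promoter entry and 7.15% of 32851 promoters. The 7 were Imp4, Mybbp1a, Nop2, Pes1 and Utp20, called lower in males, and Utp18 and Wdr43, called higher. It stood in 5 of 17 genes called lower, 2 of 4 called higher and 0 of 17 not called. This split was not tested, and no such split was made for the other genes of the array. Over all tested genes, with or without an E-box, 28.2% were called lower in males and 14% higher. Without male replicate 3, 4 of the 7 were called lower and 1 higher, beside 24.1% and 11.7% of all tested genes. The ETS-factor letters CCGGAAG stood in 14 of 39 (35.9%, beside 9.93% of genes with a promoter entry). The NRF1 motif stood in 8 (20.5%, beside 5.19%) and TATAAA in 2, Pes1 and Ppan (5.13%, beside 15.7%). CCAAT stood in 14 (35.9%, beside 41.1%) and the M4 promoter motif in 0 (beside 0.311%). All motifs were searched on both strands, and a match is a match of letters only.

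The 3 listed subunits of RNA polymerase I all had negative differences, and 2 were called lower in males, beside 28.2% of all tested genes. Polr1a, the largest catalytic subunit, had 606, 409, 593 and 427 in males, against 719.5, 785, 641 and 860.5 in females. All males lay below all females, and the difference was -0.56 ± 0.19 (limma adjusted p = 0.03). That call ended without any 1 of 5 arrays, with limma adjusted p = 0.0828 without male replicate 2, 0.0763 without male replicate 4, 0.0544 without female replicate 1, 0.0701 without female replicate 2 and 0.0766 without female replicate 4. A dimmer Polr1a probe set differed by 0.10 ± 0.26 (limma adjusted p = 0.783). Polr1c, a subunit shared with RNA polymerase III, had 12937, 11149.5, 10258 and 11689.5 in males, against 13337, 13611, 14444 and 15289.8 in females. It fell by 0.30 on the log2 scale (SE 0.09, limma adjusted p = 0.0149), and another Polr1c probe set gave -0.31 ± 0.17 and did not pass (0.171). The Polr1c call ended when the variance was modelled without a trend on the mean (limma adjusted p = 0.0529). Polr1b, the other catalytic subunit, averaged 3677 ± 404 in males and 4132 ± 403 in females (SD, n = 4 each) with overlapping ranges (-0.17 ± 0.12, limma adjusted p = 0.266).

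Among the other factors of polymerase I transcription, 4 of 13 tested were called lower in males (30.8%) and 1 higher (7.69%), with a median of -0.26. The share called lower was near the 28.2% of all tested genes. Ubtf, which opens rDNA chromatin, had 1944, 1474, 1428 and 1544 in males, against 3652, 3357, 3199 and 2474 in females (-0.98 ± 0.15, limma adjusted p = 0.000504). Taf1c, a subunit of the promoter selectivity factor, differed by -0.96 ± 0.24 and Tcof1, the treacle protein that links polymerase I with snoRNPs, by -0.66 ± 0.18. Rrn3, the initiation factor that recruits the polymerase, was the gene called higher (0.32 ± 0.11, limma adjusted p = 0.0324). Rrn3 was named after its values were seen. The list also holds further subunits of the polymerase, named after their values were seen as well. Znrd1 was called lower (-0.64 ± 0.13, limma adjusted p = 0.00234). Polr1e (-0.26 ± 0.16), Cd3eap (-0.39 ± 0.18), Twistnb (-0.003 ± 0.10) and Polr1d (0.11 ± 0.11) did not pass.

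The 3 box C/D snoRNP core proteins among the 44 genes were all called, 2 lower in males and 1 higher. Over all tested genes 42.2% were called. Fbl, fibrillarin, the enzyme that methylates ribosomal RNA, had 4228, 3040 and 4244 in male replicates 1, 2 and 3 and 2864 in male replicate 4, against 11930.2, 8127, 8723 and 7475 in females. The highest male stood well below the lowest female. It fell by 1.33 on the log2 scale (SE 0.17, limma adjusted p = 0.00017), with a female mean 2.52 times the male mean. The other Fbl probe set showed a smaller difference that did not pass (-0.34 ± 0.14, limma adjusted p = 0.0679). Nop58 had 5537, 2818, 4118 and 2668 in males, against 1551, 2351, 1805 and 1706 in females. Its males were spread widely, all above the females, and it rose by 0.98 ± 0.22 (limma adjusted p = 0.00419). The Nop58 difference was 0.25 with the 18S covariate (limma adjusted p = 0.682) and 0.58 without male replicates 1 and 3 (0.0246). Nop56, its scaffold partner, had 5686, 5577, 4948 and 5716 in males, against 6637, 6709, 6826 and 6682 in females. It fell by 0.29 on the log2 scale (SE 0.09, limma adjusted p = 0.0178), a call that ended without female replicate 3 (0.0526). A dimmer Nop56 probe set had the opposite sign and did not pass (0.47 ± 0.22, limma adjusted p = 0.107).

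Of the 3 box H/ACA snoRNP core proteins among the 44 genes, 1 was called (33.3%, beside 42.2% of all tested genes). Nop10, the smallest core protein of this particle, had 10384, 13160.3, 10073 and 12645 in males, against 16206, 14841, 15066 and 14588 in females. It fell by 0.40 on the log2 scale (SE 0.10, limma adjusted p = 0.00617). The Nop10 difference was -0.14 with the 18S covariate (limma adjusted p = 0.648) and -0.23 without male replicates 1 and 3 (0.0398). A dimmer Nop10 probe set was called in the same direction (-0.70 ± 0.20). Nhp2 (-0.15 ± 0.12) and Gar1 (-0.09 ± 0.11), also core proteins, had overlapping ranges and did not pass. Dkc1, the catalytic core protein of the same particle, which was read with the other snoRNP factors, did not pass either (-0.10 ± 0.15, limma adjusted p = 0.639). Over all tested genes 28.2% were called lower in males and 14% higher. Of 10 other tested snoRNP factors, 4 were called lower in males (40%) and 0 higher, with a median of -0.16. They were the assembly helicase subunit Ruvbl2 (-1.13 ± 0.17) and the assembly factors Znhit3 (-0.57 ± 0.13), Pih1d1 (-0.49 ± 0.14) and Nufip1 (-0.36 ± 0.10), the last named after its values were seen.

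Of 14 small subunit processing genes 13 were tested, and 4 were called lower in males (30.8%), 2 higher (15.4%) and 7 did not pass, with a median of -0.27. Both shares were near those of all tested genes (28.2% and 14%). Imp3 and Imp4, partners that pair a guide snoRNA with the ribosomal RNA precursor, were lower by similar amounts. Imp4, whose promoter is given above, had 1416, 1135, 1066 and 832 in males, against 2165, 2069, 1852 and 1595 in females (-0.79 ± 0.17, limma adjusted p = 0.00365). Its males all lay below its females on this probe set. On another Imp4 probe set the males lay above the females, with 1361 to 1615 against 1219 to 1254, and it did not pass (0.28 ± 0.12, limma adjusted p = 0.0858). Imp3 had 2462, 1969.8, 1592 and 1743 in males, against 4506, 3239.7, 2486 and 3109 in females (-0.76 ± 0.19, limma adjusted p = 0.0066). The highest male almost reached the lowest female.

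Nop14, a scaffold of the early small subunit, fell by 0.58 on the log2 scale (SE 0.15, limma adjusted p = 0.00836), with 1052 to 1510.4 in males and 1623 to 2019 in females. Its partner Noc4l did not pass on the brightest of 4 tested probe sets (-0.30 ± 0.14, limma adjusted p = 0.108). Noc4l was called lower on 2 dimmer probe sets (-0.46 ± 0.11 and -0.92 ± 0.16, limma adjusted p = 0.00596 and 0.00098), and the 4 agreed in sign. Utp20, a large repeat protein of the processome, had 5519, 5390.0, 4269.9 and 4610.2 in males, against 5399, 6159.5, 6886 and 7219.8 in females. Its ranges overlapped through male replicate 1 and female replicate 1. It was called at -0.37 ± 0.12 (limma adjusted p = 0.0274). The Utp20 call ended without any 1 of 4 arrays, with limma adjusted p = 0.0802 without male replicate 3, 0.0649 without male replicate 4, 0.0818 without female replicate 3 and 0.0715 without female replicate 4.

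The small subunit genes called higher were Utp18 and Wdr43. Utp18, a processome protein known in yeast to recruit the exosome, had 7138, 8404, 9498 and 7872 in males, against 6798, 6416, 6404 and 5582 in females (0.38 ± 0.11, limma adjusted p = 0.0131). Males lay above females, narrowly so for male replicate 1. Wdr43, a protein of the complex that binds the precursor during transcription, had 7545, 9117, 8315 and 8241 in males, against 7091, 6968, 7258 and 6159 in females. It rose by 0.27 ± 0.09 (limma adjusted p = 0.0323), and another probe set was called in the same direction (0.44 ± 0.14). The Wdr43 call on its brightest probe set ended without any 1 of 6 arrays. Its limma adjusted p was 0.097 without male replicate 2, 0.0623 without male replicate 3, 0.06 without male replicate 4, 0.0517 without female replicate 1, 0.0589 without female replicate 2 and 0.073 without female replicate 4.

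Heatr1 and Ddx10 lay close to the threshold on their brightest probe sets. Heatr1, a factor that links transcription with processing, differed by -0.27 ± 0.10 there, just short of passing (limma adjusted p = 0.05), while a dimmer probe set was called higher in males, with 703 to 959 in males and 307 to 543 in females (1.01 ± 0.20, limma adjusted p = 0.00198). Ddx10, a helicase, differed by 0.37 ± 0.14 on its brightest probe set (limma adjusted p = 0.0512), and a dimmer one was called higher (1.28 ± 0.29, limma adjusted p = 0.00417). Both moved past the threshold without male replicate 1, with limma adjusted p = 0.0116 for Heatr1 and 0.0171 for Ddx10, and without female replicate 1, with 0.0421 and 0.0135. Nat10, which acetylates cytosines of ribosomal RNA, differed by -0.27 ± 0.13 and did not pass, although its males (1088 to 1379.5) lay below its females (1417 to 1655). Wdr75 (-0.13 ± 0.12), Nol6 (0.29 ± 0.29) and Utp15 (0.03 ± 0.13) did not pass, and Utp15 was the gene of this role with the smallest difference. Rrp9, a snoRNP protein, lay below the intensity filter on its 1 probe set, with 37.3 to 57.8 in males and 67.3 to 123 in females. With no filter it did not pass (-0.71 ± 0.28, limma adjusted p = 0.112).

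Of 50 other tested small subunit factors 14 were called lower in males (28%) and 3 higher (6%), with a median of -0.21. The largest differences were in Trmt112, an activator of methyltransferases (-1.14 ± 0.13), Tbl3, a processome protein (-0.93 ± 0.16), and Utp14a, an X-linked processome gene (-0.87 ± 0.11). The share called lower was near that of all tested genes (28.2%), and without male replicate 3 the counts were 13 and 2.

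Large subunit assembly factors were called in 1 direction on their brightest probe sets. Of 15 tested genes 7 were called lower in males (46.7%), 0 higher and 8 did not pass, with a median of -0.42. Over all tested genes 28.2% were called lower and 14% higher. Ppan, whose promoter is given above, had 279, 207, 185 and 255 in males, against 888, 800.5, 833 and 582 in females. The highest male was far below the lowest female, and the female mean was 3.35 times the male mean (-1.68 ± 0.20, limma adjusted p = 0.000139). Nop2, a methyltransferase of ribosomal RNA, had 623, 478, 512 and 661 in males, against 1058, 826, 1097 and 1105 in females (-0.83 ± 0.17, limma adjusted p = 0.00264). Ranges did not overlap for any of the 7, which were picked as called lower. Over all tested genes 27.3% had males below without overlap.

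Bop1, Pes1 and Wdr12 form the PeBoW complex, which is needed to mature the large subunit RNA, and its members did not move alike. Bop1 had 924, 712, 623 and 813 in males, against 1486, 1214, 1238 and 1282 in females (-0.76 ± 0.16, limma adjusted p = 0.00288). Pes1 had 3126, 2614, 2406 and 2206 in males, against 3909.6, 3499, 4156 and 4222 in females (-0.61 ± 0.13, limma adjusted p = 0.0029), and another Pes1 probe set gave -0.21 ± 0.13 and did not pass. Wdr12 averaged 1529 ± 132 in males and 1408 ± 172 in females (SD, n = 4 each), with overlapping ranges and a difference of 0.12 ± 0.14 that did not pass (limma adjusted p = 0.508). A dimmer Wdr12 probe set did not pass either (0.41 ± 0.23, limma adjusted p = 0.174). The difference between Wdr12 and its partners was not tested.

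The helicases Ddx18 and Ddx27 were lower in males. Ddx18 had 4423, 4628, 4300.3 and 4707 in males, against 7889, 6767, 8123 and 8105 in females (-0.77 ± 0.09, limma adjusted p = 0.000144). A second Ddx18 probe set was called lower as well (-0.40 ± 0.10), and a dim one was not called (0.07 ± 0.21). Ddx27 had 962 to 1251 in males and 1655 to 1972 in females (-0.72 ± 0.13, limma adjusted p = 0.00158). Rrp1, a factor of late large subunit processing in yeast, fell by 0.52 on the log2 scale (SE 0.12, limma adjusted p = 0.00471), while its dimmer probe set had the opposite sign and did not pass (0.37 ± 0.25).

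The other 7 large subunit genes gave no call on their brightest probe set. Noc2l (-0.42 ± 0.20), Ebna1bp2 (-0.41 ± 0.17), Nop16 (-0.16 ± 0.19), Noc3l (0.10 ± 0.15), Rrs1 (0.19 ± 0.08), Brix1 (0.22 ± 0.09) and the methyltransferase gene Ftsj3 (0.35 ± 0.21) ran from negative to positive. Brix1 had males above females without passing, with 8229.9 to 9398 in males and 6719.5 to 8123 in females (limma adjusted p = 0.064). A dimmer Brix1 probe set had overlapping ranges and did not pass (0.002 ± 0.15, limma adjusted p = 0.992). Rrs1, a factor that brings in a ribonucleoprotein of the large subunit, was called higher in males on its dimmer probe set, with 12066 to 14117 in males and 9459 to 10776 in females (0.38 ± 0.08, limma adjusted p = 0.00372). On its brightest probe set the Rrs1 difference passed without male replicate 2 (limma adjusted p = 0.0474) and without female replicate 4 (0.0327). Noc2l differed by -0.57 and passed without male replicate 1 (limma adjusted p = 0.0276), and a dim Noc2l probe set of the opposite sign did not pass (1.28 ± 0.51, limma adjusted p = 0.0634).

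Of 49 other tested large subunit factors, 19 were called lower in males (38.8%) and 3 higher (6.12%), with a median of -0.26. Over all tested genes these shares were 28.2% and 14%. Without male replicate 3, 15 were called lower (30.6%) and 4 higher (8.16%), beside 24.1% and 11.7% of all tested genes. Wdr18, a subunit of a large subunit maturation complex, differed by -1.15 ± 0.19, the helicase gene Ddx24 by -0.98 ± 0.12 and the helicase gene Ddx54 by -0.94 ± 0.13. All 3 had males below females without overlap, as did 27.3% of all tested genes, and the 3 were picked for their large differences.

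**Figure D3:**
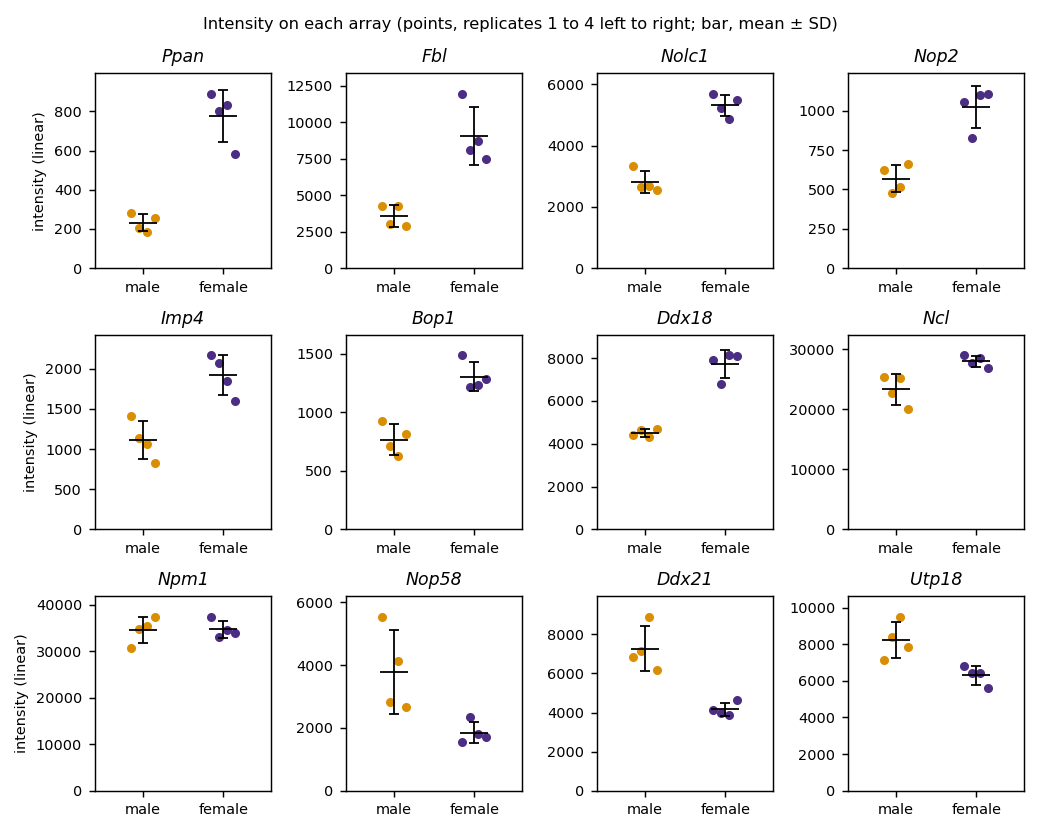
Linear intensity (vertical axes, from 0) of 12 genes on the 4 male and 4 female arrays, on the brightest tested probe set of each. Points are arrays in the order of replicates 1 to 4 and bars are means ± SD. Ranges of the sexes do not overlap except for Npm1. Over all tested genes 27.3% had males below and 12.3% males above without overlap.

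Nucleolar organisers and regulators gave 3 genes called lower (50%), 1 higher (16.7%) and 2 not passing, of 6 tested. Over all tested genes 28.2% were called lower and 14% higher. Nolc1, a chaperone of snoRNPs, had 3345, 2647, 2677 and 2569.5 in males, against 5686, 5237, 4879 and 5493 in females (-0.92 ± 0.11, limma adjusted p = 0.000149). All males were far below all females there, whereas a dimmer Nolc1 probe set showed overlapping ranges and no call (0.02 ± 0.19). Mybbp1a, a nucleolar repressor of ribosomal RNA synthesis, had 5037, 3927, 4252 and 5192 in males, against 8073, 6831, 6995 and 6556 in females (-0.63 ± 0.11, limma adjusted p = 0.00129).

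Ncl, nucleolin, an RNA-binding protein of the nucleolus, had 25427, 22647, 25219 and 20033 in males, against 28987, 27749, 28497 and 26921 in females (-0.27 ± 0.08, limma adjusted p = 0.0157). That call ended when the variance was modelled without a trend on the mean (limma adjusted p = 0.077). Its 4 tested probe sets ran from -0.91 ± 0.13, called, to 0.42 ± 0.20, not called. Npm1, nucleophosmin, its neighbour in the nucleolus, had 30680.5 to 37428 in males and 33009.7 to 37328 in females, with a difference of -0.01 ± 0.07 (limma adjusted p = 0.944). A dimmer Npm1 probe set had the opposite sign and did not pass (0.24 ± 0.12, limma adjusted p = 0.125). Gnl3, nucleostemin, a GTP-binding protein of dividing cells, differed by -0.16 ± 0.09 and did not pass.

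Ddx21, a helicase that acts in ribosomal RNA transcription and processing, was the 1 gene with calls in opposite directions. Its brightest probe set had 6853, 7164, 8897 and 6157 in males, against 4151, 3953, 3892 and 4656 in females (0.79 ± 0.12, limma adjusted p = 0.00046). A dimmer probe set had 1012, 817, 869.6 and 725 in males, against 1242, 1218, 1298 and 1296 in females (-0.56 ± 0.14, limma adjusted p = 0.00884). Neither probe set had overlapping ranges, so the direction of Ddx21 depends on which is read.

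Other genes had probe sets that differed in sign or in whether they passed, about as often as on the whole array or less. Of 26 genes with 2 or more tested probe sets, 15 had all differences of 1 sign and 11 had both signs (42.3%, beside 47.8% of 4934 such genes on the array). In 15 of the 26 the probe sets differed in call (57.7%, beside 57.8%), and in 1 both directions were called (3.85%, beside 7.52%). The brightest probe set gave a lower value than the dimmest in 19 of the 26 (73.1%, beside 63.9%). Of the 43 representative probe sets 16 carried a name suffix for probes that can match several transcripts or related sequences, among them those of Fbl, Nop56, Nop10, Polr1c, Gar1, Noc4l and Rrs1.

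**Figure D4:**
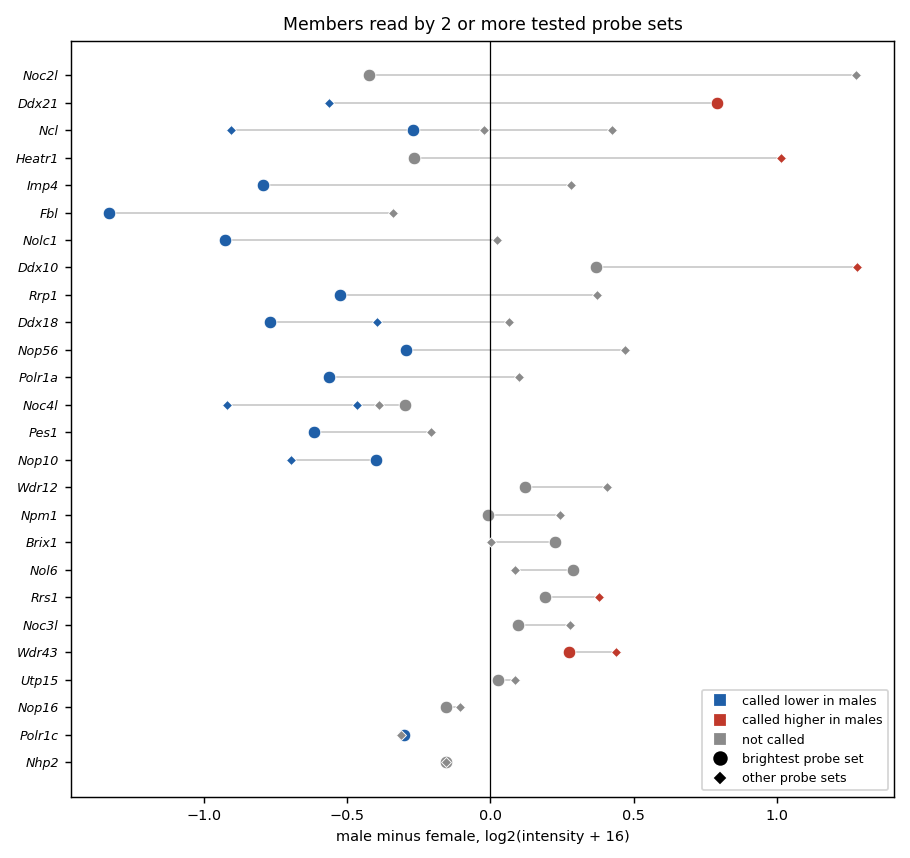
Male minus female difference in log2(intensity + 16) (horizontal axis) of every tested probe set for the 26 genes read by at least 2, ordered by the span within the gene. Circles are the brightest probe set of a gene and diamonds the others, coloured by call. Noc2l spans -0.42 to 1.28, and Ddx21 has a call on each side of 0.

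The genes next to these in the pathway were examined as lists. Their counts stand beside 28.2% of all tested genes called lower in males and 14% called higher. Without male replicate 3 these shares of all tested genes were 24.1% and 11.7%. The polymerase I, snoRNP and Myc lists had the same numbers of calls without male replicate 3. In the RNA exosome, which trims the precursors, 6 of 16 tested genes were called lower in males (37.5%) and 4 higher (25%), with a median of -0.11. Without male replicate 3 these counts were 5 and 2. Exosc10, a catalytic subunit, differed by -1.02 ± 0.24 and Exosc5, a core subunit, by -0.93 ± 0.18. C1d, an exosome cofactor, had 14733, 15392, 15715 and 16825 in males, against 7624, 6801, 9384 and 9054 in females (0.94 ± 0.10, limma adjusted p = 8.8e-05).

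In the Myc network, 4 of 10 tested genes were called lower in males (40%) and 1 higher (10%), with a median of -0.24. These shares stand beside 28.2% and 14% of all tested genes. Mycl had 1040, 1236, 1120 and 1272 in males, against 2360, 2323, 2765 and 2346 in females (-1.06 ± 0.13, limma adjusted p = 0.000137). Mxd4, a Myc antagonist, differed by -0.80 ± 0.13 and Myc itself by -0.58 ± 0.14. Mycn averaged 5884 ± 653 in males and 6483 ± 1199 in females (SD, n = 4 each) and did not pass (-0.13 ± 0.13). The fourth gene called lower was the Myc antagonist Mxi1 (-0.44), and the gene called higher was another antagonist, Mxd1 (0.44), both named after their values were seen.

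In the nucleolar stress response, 1 of 8 tested genes was called lower in males (12.5%) and 2 higher (25%), with a median of 0.16. These shares stand beside 28.2% and 14% of all tested genes. Without male replicate 3, 1 gene of this list was called lower and 0 higher. Mdm2, a ubiquitin ligase, differed by 0.49 ± 0.16, the kinase gene Plk2 by -0.46 ± 0.10 and Ccng1, a cyclin, by 0.32 ± 0.11. Among the 9 pathway lists, cytosolic ribosomal protein genes gave the largest share of calls, with 28 of 41 tested called lower in males (68.3%), 0 higher and a median of -0.31. Without male replicate 3, 27 were called lower and 0 higher. Rps15 differed by -1.25 ± 0.15, Fau by -1.23 ± 0.15 and Rps9 by -1.18 ± 0.14. In the cell cycle list, with a median of -0.26, the cyclin gene Ccne1 differed by -1.18 ± 0.29, its paralogue Ccne2 by 0.95 ± 0.16 and the replication helicase gene Mcm2 by -0.73 ± 0.10.

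**Figure D5:**
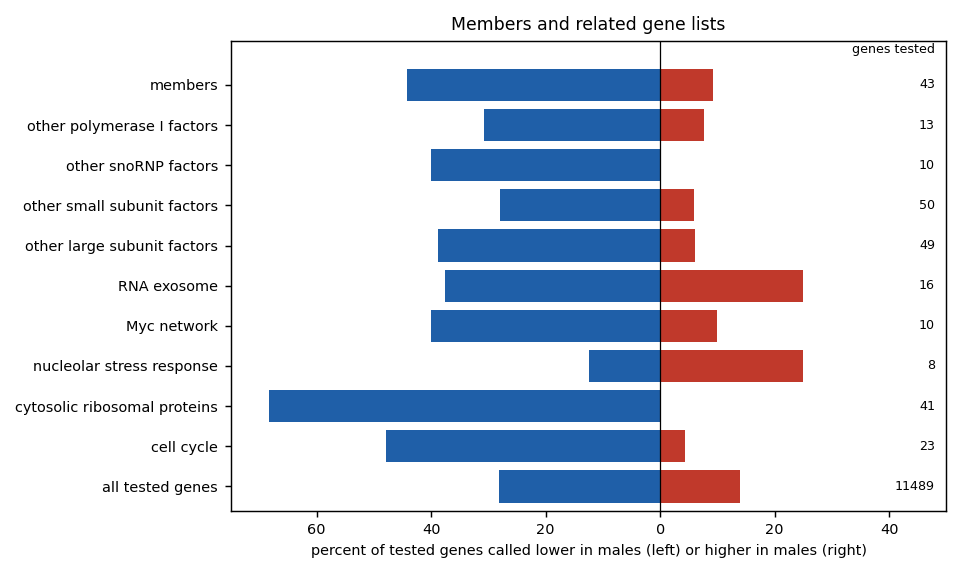
Percent of tested genes called lower in males (bars to the left) and higher in males (bars to the right) among the ribosome biogenesis factors, 9 related lists and all tested genes, with the number tested at the right. The factors show 44.2% lower and 9.3% higher, beside 28.2% and 14% of all tested genes.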

How the data were processed

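Per the labels' protocols, total RNA went through 2 amplification rounds before biotin labelling. The deposited intensity of each probe set was made with GCOS, the Affymetrix software, per the submitters' processing notes, whose version no source used here gives. All arrays had the same 2%-trimmed mean, so the values were not normalized again. Arrays give no read depth, and their number limits the precision.

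Values were transformed as log2(value + 16). Of 45101 probe sets 64 controls were left out, and the brighter part by mean log2 value (22519 probe sets, split at the median, 7.77) was tested with limma 3.58.1 (R 4.3.3). The model held sex alone, eBayes used a trend of variance with mean, and p-values were adjusted by Benjamini-Hochberg with a threshold of 0.05. The method was tested on simulated data. Genes were named from probe sets annotated with 1 gene (34945; 932 named several and 9160 none). Groups follow the labelled sex.

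The 44 genes, their roles, the other lists and the alternatives were chosen with earlier results of these data known. The lists other than the 44 were the other polymerase I, snoRNP, small subunit and large subunit factors, the RNA exosome, the Myc network, the nucleolar stress response, cytosolic ribosomal proteins, cell cycle genes and marker genes. The naming rule took, in each role, the called genes with the largest differences (up to 4, or 6 in the roles of 14 and 15 genes), the gene with the smallest difference and every gene whose tested probe sets differed in sign or call, and up to 3 called genes of each list; the others were added to account for all 44. Some genes fixed for naming are not reported here. Alternatives changed the pseudocount, filter, normalization, variance model, array weights, replicate block, choice of probe set, 18S covariate and arrays.

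Replicate numbers of the labels run from 1 to 4 in both sexes. Identical values were found in 0 of 28 array pairs, and log2 values correlated at 0.966 to 0.985 for arrays of 1 sex and at 0.904 to 0.952 for a male with a female array.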

Additional observations from a re-analysis of the deposited data

Results flagged for a closer look

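Of 148 groups of 4 arrays (74 tested probe sets in each sex), 7 held 1 array far from the other 3 by Dixon's test. Chance flags about 1 in 20 groups, which is close to this share. In males, Nolc1 was high in replicate 1 (3345, beside 2569.5 to 2677 in the other males), Nop56 was low in replicate 3 (4948, beside 5577 to 5716), and replicate 2 was low for Nat10 (1088, beside 1325 to 1379.5) and for the dimmer Polr1c probe set (1737, beside 2648 to 2784). In females, replicate 2 was low for Ddx18 (6767, beside 7889 to 8123) and Nop2 (826, beside 1058 to 1105), and replicate 4 was low for Gnl3 (10476, beside 11874 to 11959.8). Each of the 4 called genes among these, Nolc1, Ddx18, Nop2 and Nop56, had males below females on the probe set concerned, outlying arrays included.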

How the results depend on the processing

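The counts and the median kept their direction under all alternatives run. The count of called probe sets on the array was 9128, and it was 5890 with an upper-quartile filter, which tests fewer probe sets, and 414 with the 18S level as a covariate. With that covariate 1 of the genes was called lower and 0 higher, beside 19 and 4 without it. Over all tested genes 0.914% were then called lower and 1.09% higher. The 18S level and sex cannot be told apart in that fit. Quantile normalization gave 7 called higher (16.3%, beside 14.6% of all tested genes) and 19 lower (44.2%, beside 29.3%). With the mean of each gene's tested probe sets the median was -0.16, beside -0.06 over all tested genes. With the dimmest probe set the median was -0.088, beside -0.05. On the dimmest probe set 10 genes were called lower (23.3%, beside 22.2% of all tested genes) and 6 higher (14%, beside 15.6%). Both shares were there near those of all tested genes. Leaving out 1 array gave 7321 to 9454 called probe sets, 17 to 23 genes called lower, 3 to 5 called higher and medians of -0.31 to -0.25. Over all tested genes, 23.1% to 29.7% were then called lower and 11.3% to 15.7% higher. Without male replicates 1 and 3, 18 were called lower (41.9%, beside 25.6% of all tested genes) and 6 higher (14%, beside 14.2%). In that fit 21 of 23 called genes kept their call.

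The called genes changed sign under no setting other than the choice of probe set. With the mean of a gene's probe sets, Nop56 was 0.088, and Heatr1, which did not pass on its brightest probe set, was 0.37. With the dimmest probe set, Ddx18 was 0.066, Ddx21 -0.56, Heatr1 1.01, Imp4 0.28, Ncl 0.42, Nolc1 0.024, Nop56 0.47, Polr1a 0.10 and Rrp1 0.37. The cause was not tested.

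Same-numbered samples of the sexes did not deviate together (correlations of their deviations from -0.13 to 0.04), and 0 of 4 males correlated best with the female of their own number. With the replicate number as a block, 17 genes were called lower (39.5%, beside 26.1% of all tested genes) and 5 higher (11.6%, beside 13.4%). The median was unchanged at -0.27, and 8460 probe sets were called on the array. The calls of Polr1a (limma adjusted p = 0.0648) and Utp20 (0.06) were lost with that block. Over the named genes, 600 of the alternative values stayed on their side of the threshold, 55 no longer passed, 23 newly passed and 11 are the values of opposite sign above. With no mean-variance trend 19 of 23 called genes kept their call, and Ncl (limma adjusted p = 0.077), Polr1c (0.0529), Utp20 (0.0544) and Wdr43 (0.068) lost it; with no filter Polr1a lost it (0.054). Dim probe sets are limited by the pseudocount, and Rrp9 by its level.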
